A study of Equus caballus with 12 samples.

Results

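The lung and the liver of the same 4 horses were compared by RNA-seq, with the ratio of lung to liver (LvsLR) taken within each animal. The 8 libraries, 4 of lung and 4 of liver, are those that the labels assign to these tissues among the 12 libraries of the series, and the other 4 come from the heart. A lung library and a liver library were paired when they carried the same animal number, and the animals are called here horse 1 to horse 4. The animals were healthy cold-blooded stallions aged 1 to 2 years, and a piece of the right lung (caudal lobe) and a piece of the liver (right lobe) were taken at slaughter. No treatment was given, and all groups share the sex, the type of horse and the poly-A selection of the RNA, so a ratio describes 1 site of each organ in untreated males.

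The lung is the organ of gas exchange. Its tissue is a mixture of thin epithelium, secretory epithelium, capillary endothelium, airway cells, smooth muscle and resident immune cells. The liver is built mainly from one cell type, the hepatocyte, which makes most of the plasma proteins and carries out much of intermediary metabolism and detoxification. In whole tissue, fewer cells of a type and less RNA per cell cannot be told apart. The files give genes only by Ensembl identifiers that could not be paired with symbols here (0 of 31217), so markers of lung, liver or blood cells could not be read, the tissue labels could not be checked against them, and no gene sequence is shown. Genes are therefore described through their levels, and 4 of them are given by identifier.

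Reads counted in genes ranged from 8395937 to 22247307 in the lung libraries and from 4345694 to 18142916 in the liver libraries. Horse 4 had the most unequal pair, with 18827423 counts in lung and 4345694 in liver, whereas horses 1 and 2 had fewer counts in lung than in liver. Reads outside annotated genes made up 28.8% to 30.2% of all listed reads in lung and 16.8% to 22% in liver. Levels are given as CPM, a gene's counts divided by the scaled size of its library and expressed per 1000000. Library sizes were scaled with TMM, a trimmed mean of log ratios between libraries, and the factors were 2.18 ± 0.0686 for the lung libraries and 0.748 ± 0.0696 for the liver libraries (SD over 4). They are not divided by gene length, so a class of CPM groups genes by reads and not by molecules. Genes restricted to one tissue relative to the heart were traced in the other tissue. The 30 liver genes stood at a median of 0.0225% to 0.0615% of their liver level in the lung libraries, highest in lung replicate 3. The 30 lung genes stood at a median of 0.298% to 0.76% of their lung level in the liver libraries, highest in liver replicate 4. Their upper quartiles there were 6.73% to 15.0%, against 0.0426% to 0.160% for the liver genes in lung. Part of the lung set was thus read in the liver.

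Within every horse the ratios were spread widely, with medians on the side of the lung. The median log2 lung/liver ratio over the 15436 tested genes was 0.27, 0.25, 0.27 and 0.20 in horses 1 to 4. The 4 medians lay close together, while the genes within a horse lay far apart. The middle 50% of genes ranged from -0.75 ± 0.015 to 1.57 ± 0.088, and the 5th and 95th percentiles stood at -3.68 ± 0.13 and 4.2 ± 0.17 (mean ± SD, n = 4). A ratio above 1 log2 unit, which is a lung level over 2 times that of the liver, was found for 5260, 4961, 5334 and 5000 genes in horses 1 to 4. A ratio below -1 was found for 3104, 3191, 3183 and 3204 genes in the same order. On average 46.2% ± 1.07 of the genes stayed within 1 log2 unit in a horse. Part of this position came with the choice of genes. The filter used raw CPM, and because the lung libraries had the larger scaling factors, genes of the lung passed it at lower scaled levels than genes of the liver. Of the 11916 genes that reached 2.73 CPM in every lung library or in every liver library, an equal level for both tissues, the median ratio was 0.063 (mean of 4 horses). All positions are also relative to the TMM scaling: with library totals alone the median fitted log2 fold change over all genes was 1.81 instead of 0.26, a shift of 1.55.

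The horses had similar ratios across the genes. Across the 15436 genes, the ratios of 2 horses correlated with a Pearson r of 0.915 to 0.941 over the 6 pairs of horses, as a description across genes, which are not independent. The ratios of 2 horses differed by a median of 0.40 to 0.51 log2 units, and 76.0% to 82.0% of the genes differed by no more than 1 unit. Horse 2 with horse 4 was the least similar pair, and horse 1 with horse 3 the most similar.

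The direction was shared by all 4 horses for 11604 genes, 75.2% of those tested. Lung exceeded liver in 4 of 4 horses for 6754 genes (43.8%) and liver exceeded lung in 4 of 4 for 4850 genes (31.4%), numbers that became 12344 and 1504 with library totals alone. Among the genes that reached the equal level they were 4899 and 4485, and among genes with at least 10 counts in each of the 8 libraries the liver led, with 3442 against 4229. The remaining 3832 genes (24.8%) had mixed or tied directions. Ratios above 1 in every horse were found for 3449 genes, 22.3% of those tested, and ratios below -1 in every horse for 2209 genes, 14.3%. Another 4500 genes (29.2%) stayed within 1 log2 unit in all 4 horses. Outright contradiction, a ratio above 1 in one horse and below -1 in another, was seen for 245 genes, of which 32 had a mean level of at least 10 CPM.

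In the test across tissues, 7787 genes were differentially expressed (DEGs), 50.4% of the 15436 tested. A gene counted as a DEG when the quasi-likelihood test of edgeR gave it an adjusted p (Benjamini-Hochberg) under 0.05 and it differed by 2-fold or more. Of all tested genes, 4793 (31.1%) were DEGs higher in lung and 2994 (19.4%) DEGs higher in liver, so that 61.6% of the DEGs were higher in lung. With library totals alone the split was 10788 against 1151, or 90.4% higher in lung, and with totals that leave out the 10 most counted genes of each tissue it was 9039 against 1386, or 86.7%. All 4793 DEGs higher in lung were also called higher in lung with library totals alone, as 1151 of the 2994 higher in liver were also called higher in liver, and 0 genes changed sides. Library totals moved the median fold change by 1.55 log2 units toward the lung. That the lung calls stayed and that 0 genes changed sides largely follows from this shift. Among the 11916 genes at the equal level, 3167 DEGs were higher in lung and 2706 higher in liver, or 53.9% in lung. The sign of the ratio was the same in 4 of 4 horses for 97.9% of the DEGs higher in lung and for 98.3% of those higher in liver. The ratio passed 1 log2 unit in every horse for 71.2% and 73.6% of them. These shares come from the libraries that made the calls, so agreement in sign is largely built in.

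The DEGs of the liver lay at higher read levels. DEGs higher in lung had a median of 8.65 CPM in lung against 1.28 CPM in liver, whereas DEGs higher in liver had a median of 43.7 CPM in liver against 7.19 CPM in lung. Small changes were common in both directions, since 1738 DEGs higher in lung and 1476 higher in liver changed by 2-fold to 4-fold. Between 4-fold and 10-fold there were 1508 and 628, between 10-fold and 100-fold 1163 and 504, and at 100-fold or more 384 and 386, in the same order. The lung held more DEGs in the 3 lower steps, and nearly as many as the liver in the highest. These levels and numbers include the genes of low level that passed the filter through the lung.

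To follow the ratio over read levels, genes were put into 5 classes by the mean of their lung and their liver CPM. The classes held 1597 genes under 1 CPM, 5512 from 1 to 10 CPM, 7199 from 10 to 100 CPM, 1035 from 100 to 1000 CPM and 93 genes at 1000 CPM or more. Under 1 CPM the side of the ratio was largely set by the filter: 1037 of the 1597 genes passed in every lung library and not in every liver library, 17 the reverse, 5 in both and 538 in neither. The median ratio of 1.29, 1.22, 1.34 and 1.32 in horses 1 to 4 is given for this class as a description only. Above it the per-horse median fell from class to class in every horse. From 1 to 10 CPM it was 0.75, 0.69, 0.81 and 0.67, or 0.61 ± 0.038 for the 3599 genes of the class at the equal level. From 10 to 100 CPM it was -0.0066, -0.072, -0.043 and -0.049, close to equal levels. From 100 to 1000 CPM it was -0.88, -0.93, -0.94 and -0.79, and at 1000 CPM or more -8.87, -8.27, -8.33 and -9.71, so liver stood above lung.

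Each of the 4 medians from 1 CPM upward had 1 direction in 4 of 4 horses (exact sign-flip test, two-sided p = 0.13, adjusted p = 0.13 over the 5 classes). With 4 horses this is the smallest p the test can give. At the equal level, the median at 1000 CPM or more minus that from 1 to 10 CPM was -9.41 ± 0.63 log2 units (SD, n = 4 horses). This distance belongs to the 93 genes of the highest class: by quartiles of the mean log2 level instead of classes, the median was -0.31 ± 0.039 in the highest quartile and 1.56 ± 0.11 in the lowest, a difference of -1.88 ± 0.082, and the lowest quartile again holds genes that passed through the lung. The scaling set where the medians crossed 0: with library totals alone they were 2.24, 1.62, 1.33 and -2.67 from 1 to 10 CPM upward, so the classes from 10 to 100 and from 100 to 1000 CPM turned to the lung. Under 1 CPM the median moved from 0.91 with a prior count of 5 to 1.69 with a prior count of 0.5, and was 0.66 after thinning to the smallest total.

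**Figure D1:**
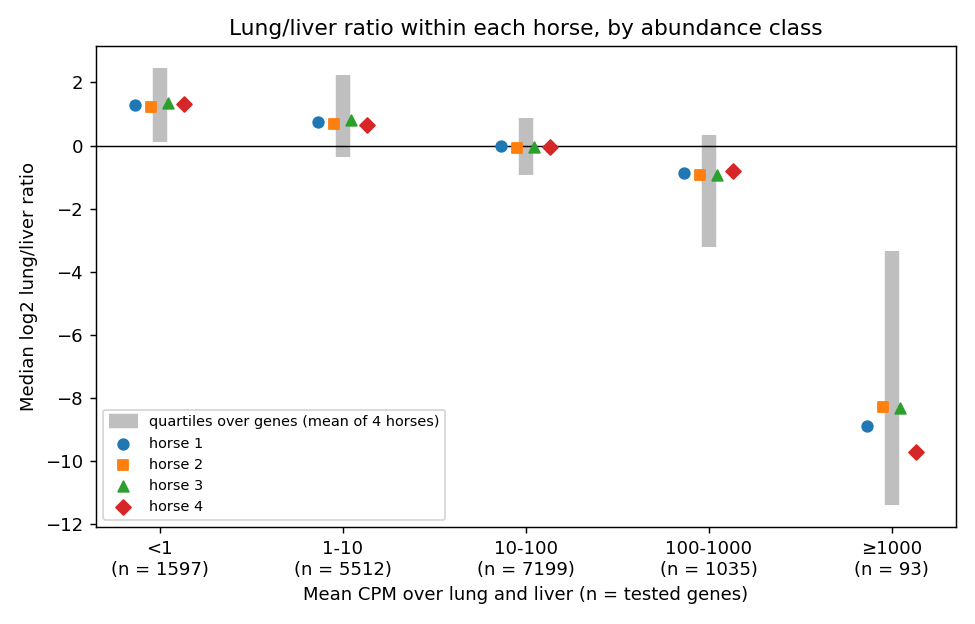
Median log2 lung/liver ratio of the genes in each class of mean CPM, with 1 symbol per horse, and grey bars from the lower to the upper quartile over genes (mean of 4 horses). With TMM scaling the medians fall from between 0.67 and 0.81 at 1 to 10 CPM to between -9.71 and -8.27 in the highest class, while with library totals alone the classes from 10 to 1000 CPM lie above 0, and the class under 1 CPM holds mostly genes that passed the filter through the lung.

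A gene with an extreme level in either tissue is moved into a high class by that tissue, so the classes were also set by the level in the 4 heart libraries, which do not enter the ratio. Genes under 1 CPM in the heart had a median ratio of 1.73 ± 0.17, those from 1 to 10 CPM 0.42 ± 0.045, those from 10 to 100 CPM -0.030 ± 0.033, those from 100 to 1000 CPM -0.15 ± 0.10 and those at 1000 CPM or more -0.81 ± 0.35 (SD, n = 4 horses). Genes under 1 CPM in the heart also passed mostly through the lung, 1634 of 2490 against 244 through the liver. At the equal level the 5 medians were 1.86 ± 0.14, 0.28 ± 0.040, -0.055 ± 0.036, -0.18 ± 0.12 and -0.93 ± 0.18, and without heart replicate 2 they were 1.56, 0.44, -0.026, -0.18 and -0.76 over all tested genes. By lung and liver level, the highest class had a median of -8.79 ± 0.67.

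DEGs followed the same classes. From 1 to 10 CPM, 42.5% of the genes were DEGs higher in lung and 12.8% DEGs higher in liver, beside 31.1% and 19.4% over all tested genes. At the equal level the shares of this class were 41.1% and 13.8%. From 10 to 100 CPM they were 21.3% and 22.7%. From 100 to 1000 CPM 14.6% were higher in lung and 47.7% higher in liver, and at 1000 CPM or more 5 genes (5.38%) were higher in lung and 82 genes (88.2%) higher in liver. Under 1 CPM the shares were 47.7% and 4.76%, but 0 genes of this class reached the equal level, so nothing is read from them. The lung held 74.8% of the DEGs from 1 to 10 CPM at the equal level and 5.75% of those at 1000 CPM or more. With library totals alone and all tested genes, it held 93.5% and 33.3%, and 75.8% of the DEGs from 100 to 1000 CPM. The class from 10 to 100 CPM had the largest share of genes that were not DEGs, at 55.98%, although the median standard error of its log2 fold changes was the smallest of the 5 classes, at 0.21 against 0.72 under 1 CPM.

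**Figure D2:**
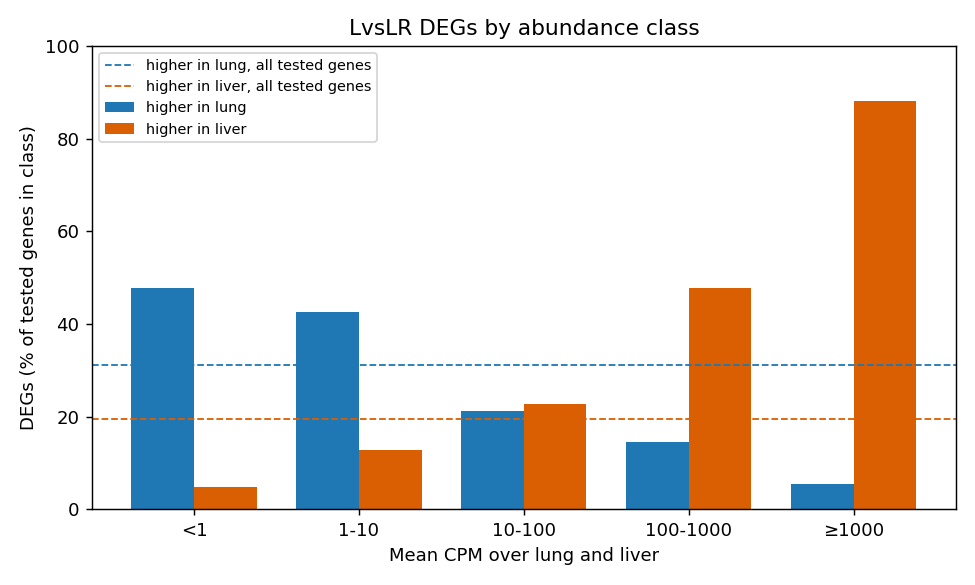
Share of tested genes in each class of mean CPM that were DEGs higher in lung (blue) or in liver (orange), with dashed lines at 31.1% and 19.4%, the shares over all tested genes. From 1 to 10 CPM upward, blue bars fall from 42.5% to 5.38% and orange bars rise from 12.8% to 88.2% with TMM scaling, whereas with library totals alone the lung also held more DEGs than the liver from 100 to 1000 CPM. With classes set in the heart (not drawn), 18.2% were higher in lung and 37.7% higher in liver at 1000 CPM or more.

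Large fold changes were as common in lung as in liver, but they were spread differently over the classes. Over all classes, 384 DEGs were at least 100-fold higher in lung and 386 at least 100-fold higher in liver. A gene with a very high level in 1 tissue enters a high class through that tissue. The split by class is therefore partly built in, and it was not tested with classes set in the heart. Of the 93 genes at 1000 CPM or more, 53 were at least 100-fold higher in liver and 3 at least 100-fold higher in lung. In the class from 100 to 1000 CPM the numbers were 127 and 12, and from 10 to 100 CPM 132 and 81. From 1 to 10 CPM the numbers were 195 in lung and 69 in liver, in a class where 2047 genes passed the filter in every lung library only and 196 in every liver library only. The median log2 fold change of DEGs in the highest class was -9.70 for the 82 genes of the liver and 9.95 for the 5 genes of the lung.

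The same imbalance stood in the level that a gene reached in each tissue. At 1000 CPM or more there were 146 genes in liver, 24 in lung and 5 in both, and with library totals alone 119, 87 and 14. Of the 146 liver genes, 72 were under 10 CPM in lung and 27 under 1 CPM. Of the 24 lung genes, 6 were under 10 CPM in liver and 0 under 1 CPM. At the other end, 1714 genes were from 1 to 10 CPM in lung and under 1 CPM in liver, and 361 genes the reverse. Both tissues put 9042 genes (58.6%) into the same class. A higher class in lung was found for 3901 genes and a higher class in liver for 2493, but the genes that moved by 2 or more classes were 342 and 523.

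The classes took unequal shares of the reads. Genes at 1000 CPM or more took 9.08% ± 0.663 of the gene counts of the lung libraries and 54.6% ± 3.03 of those of the liver libraries (SD, n = 4 each). Lung libraries ranged from 8.56% to 10.01% and liver libraries from 52.0% to 58.3%, without overlap. In the class from 10 to 100 CPM the order was turned, with 47.8% ± 1.33 in lung and 18.2% ± 1.54 in liver, and the class from 100 to 1000 CPM took 36.3% ± 0.787 in lung and 25.6% ± 1.57 in liver. Genes from 1 to 10 CPM took 6.54% ± 0.193 in lung and 1.55% ± 0.186 in liver, and those under 1 CPM 0.262% ± 0.0118 and 0.0388% ± 0.00869. Within horses, lung minus liver was -45.5 ± 3.57 percentage points in the highest class and 29.6 ± 2.38 from 10 to 100 CPM, with 1 direction in 4 of 4 horses in each of the 5 classes (exact sign-flip test, p = 0.13, adjusted p = 0.13, the smallest that 4 horses can give). When the classes were set in the heart, the signs rested on 1 library. The difference from 100 to 1000 CPM was -14.2 points with all 4 heart libraries and 8.07 without heart replicate 2, from 10 to 100 CPM 4.91 and -5.33, from 1 to 10 CPM 6.72 and -2.98, and under 1 CPM 2.21 and -0.065. At 1000 CPM or more it was 0.351 and 0.309 points. The large difference of the highest class was thus not seen with classes set in the heart.

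The 82 DEGs of the liver in the highest class took 53.7% ± 3.03 of the liver counts and 3.42% of the lung counts on average. In lung, the DEGs higher in lung took 15.8% ± 0.685 of the counts in the class from 10 to 100 CPM, 13.3% ± 0.578 from 100 to 1000 CPM and 3.92% ± 0.685 at 1000 CPM or more (SD, n = 4). The counts of DEGs higher in liver were thus held mainly by the highest class, and those of DEGs higher in lung by the middle classes.

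**Figure D3:**
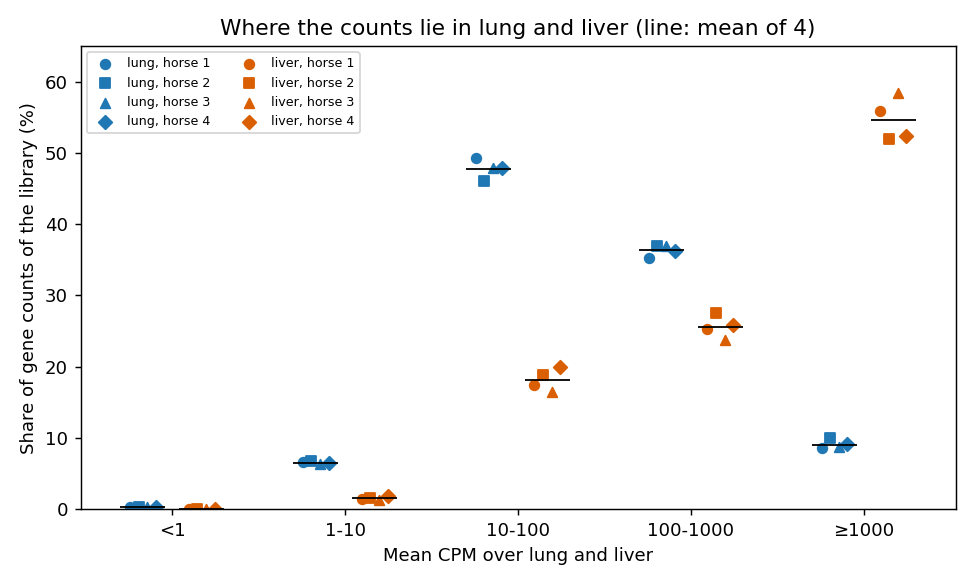
Share of the gene counts of each lung (blue) and liver (orange) library held by each class of mean CPM, with 1 symbol per horse and a line at the mean of 4. Genes at 1000 CPM or more hold 52.0% to 58.3% of the liver counts and 8.56% to 10.01% of the lung counts.

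A view that needs no scaling between libraries used the 100 most counted genes of each library. Lung and liver of the same horse had 14, 17, 13 and 13 of these genes in common in horses 1 to 4. Between animals, 2 lung libraries had 71 to 86 in common and 2 liver libraries 77 to 89, and 9 genes were on the list of all 8 libraries. The leading genes of the lung were still well read in the liver, with a median rank of 370 ± 22.1 there, but those of the liver had a median rank of 8811 ± 542 in the lung (SD, n = 4 horses). The 100 leading lung genes took 20.9% ± 0.934 of the lung counts and 9.51% ± 1.11 of the liver counts. The 100 leading liver genes took 56.9% ± 3.15 of the liver counts and 4.71% ± 0.641 of the lung counts.

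The most counted gene of each tissue among the DEGs whose libraries did not overlap was also the gene with the highest mean in that tissue over all tested genes. For the lung this was ENSECAG00000010662, at 4412, 7144, 2132 and 6510 CPM in lung and 3.90, 4.24, 4.16 and 7.93 CPM in liver of horses 1 to 4. Each lung library stood far above each liver library, although the lung levels of horse 2 and horse 3 differed by several times. The lung/liver ratio was 1100, 1641, 499 and 810 in horses 1 to 4, and the fitted log2 fold change 9.99 ± 0.70 (SE), with an adjusted p of 7.86e-08 (quasi-likelihood test of edgeR, Benjamini-Hochberg adjustment). The gene took 1.10% ± 0.487 of the lung counts.

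For the liver it was ENSECAG00000010305, at 132990, 78501, 89147 and 77012 CPM in liver and 33.6, 17.3, 42.6 and 22.6 CPM in lung of horses 1 to 4. Horse 1 was highest in liver and horse 3 highest in lung, the library with the highest trace of liver genes. The liver/lung ratio was 3944, 4514, 2089 and 3397, and the fitted log2 fold change -11.67 ± 1.52 (SE; adjusted p = 2.20e-05, quasi-likelihood test of edgeR). Its lung level of 29.0 ± 11.3 CPM (SD, n = 4) was 0.0183% to 0.0451% of its liver mean. The gene is 1 of the 30 liver genes traced in the lung libraries, and the other 29 stood at a median of 0.0233% to 0.0624% there. The part of that trace in the ratio was not tested.

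A second pair of genes was chosen for the widest range of the ratio over the horses, so the range is a description only. ENSECAG00000038509, higher in lung, stood at 190, 1232, 19.5 and 198 CPM in the lung of horses 1 to 4 and at 1.90, 2.34, 1.32 and 3.01 CPM in the liver. The lung of horse 2 was the highest and that of horse 3 the lowest, while the liver levels lay close together. The ratio ran from 13.7 in horse 3 to 503 in horse 2, a range of 5.20 log2 units. The log2 fold change was 7.63 ± 1.13 (SE; adjusted p = 0.000101, quasi-likelihood test of edgeR) and 6.14 without horse 2.

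ENSECAG00000013311, higher in liver, stood at 23.2, 2903, 6293 and 948 CPM in the liver of horses 1 to 4 and at 0.746, 0.468, 5.29 and 0.901 CPM in the lung. Horse 1 had a far lower liver level than the other 3 horses, and horse 3 the highest level in both tissues. The liver/lung ratio was 27.2, 5018, 1165 and 937 in horses 1 to 4, a range of 7.53 log2 units. Its log2 fold change was -10.39 ± 2.26 (SE; adjusted p = 0.00164, quasi-likelihood test of edgeR). Liver levels thus set the range of this gene over the horses, and lung levels that of ENSECAG00000038509.

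**Figure D4:**
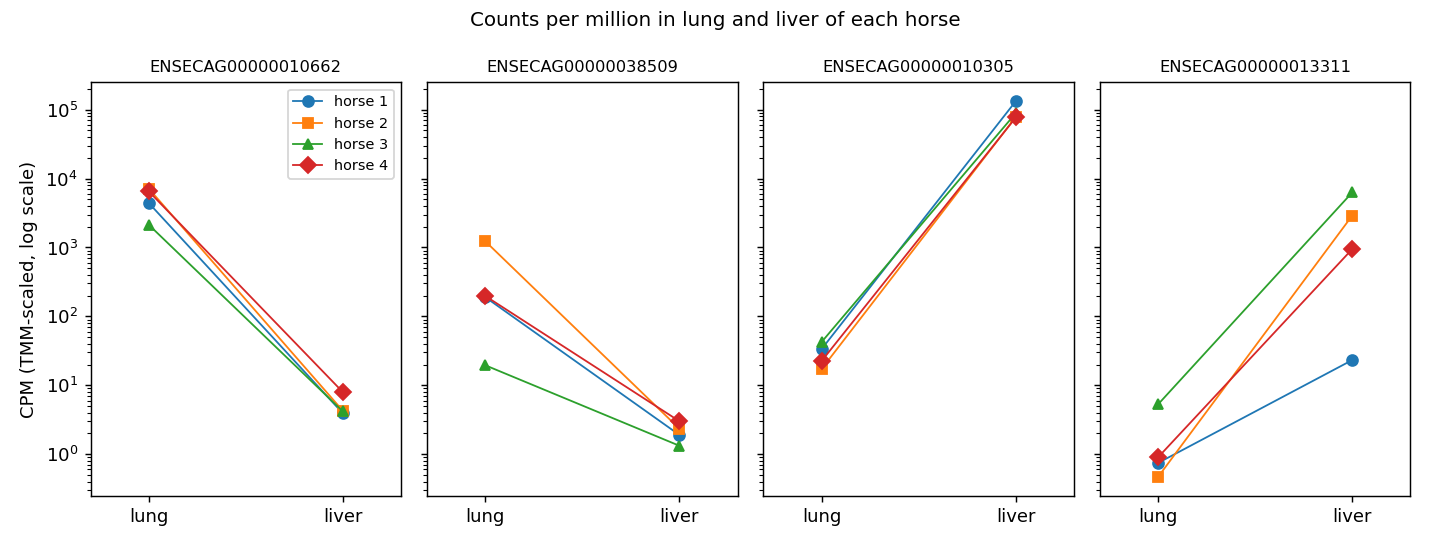
CPM of 4 genes in lung and liver on a log axis, with a line and a symbol for each horse. ENSECAG00000010662 and ENSECAG00000010305 have near-parallel lines, whereas ENSECAG00000038509 spreads in lung, from 19.5 to 1232 CPM, and ENSECAG00000013311 in liver, from 23.2 to 6293 CPM.

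Over all genes, the liver varied more between horses than the lung. The median SD over 4 horses was 0.27 log2 units for lung levels, 0.37 for liver levels and 0.42 for the ratio. The liver SD was the larger for 10258 genes (66.5%). The liver libraries include the one with the fewest counts, liver replicate 4, and counting error adds to these SDs, so depth and tissue cannot be told apart in them. At 1000 CPM or more the order turned, with a median SD of 0.57 in lung and 0.36 in liver, and the lung SD was the larger for 69.9% of the 93 genes. Of these genes 82 were DEGs higher in liver, and the median counts of the class were 495.5 in lung against 35996 in liver. The lung SDs thus describe mostly genes at their low level, and the part of the trace of liver genes in them was not tested.

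Taking the ratio within a horse narrowed it for most genes. The SDs of both tissues combined (root of the summed squares) had a median of 0.51, compared with 0.42 for the ratio. A combined SD rests on the values of both tissues, which raises its median. Part of this gap would thus appear without any pairing. The paired SD was the smaller for 9803 genes (63.5%). The share of genes with the smaller paired SD was 54.5% under 1 CPM, 61.7% from 1 to 10 CPM, 66.3% from 10 to 100 CPM, 66.6% from 100 to 1000 CPM and 73.1% at 1000 CPM or more. The SD of the ratio was smallest in the middle of the scale, with a median of 0.31 from 10 to 100 CPM, and largest under 1 CPM, with 0.88. A range over 2 log2 units between the horses was found for 2613 genes (16.9%), and for 481 (5.78%) of the 8327 genes with at least 10 CPM. Among the latter genes, the horse farthest from the mean ratio was horse 2 for 31.1%, horse 4 for 25.6%, horse 1 for 21.7% and horse 3 for 21.6%.

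**Figure D5:**
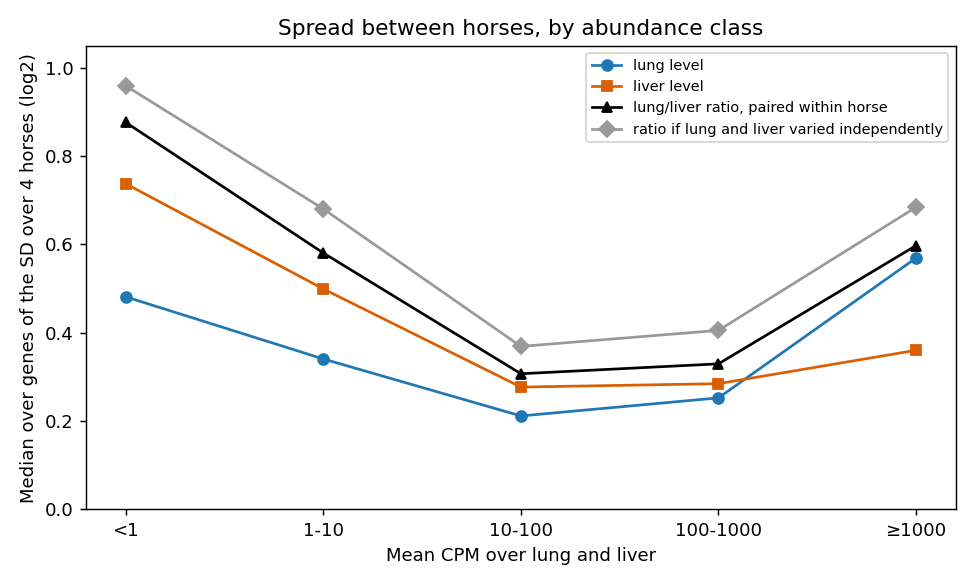
Median over genes of the SD over 4 horses, in log2 units, by class of mean CPM. Lines show lung levels, liver levels, the lung/liver ratio paired within horse, and the SDs of both tissues combined (labelled as independent variation). The black line of the paired ratio lies below the grey line of the combined SDs in every class, at 0.31 against 0.37 from 10 to 100 CPM. Part of this gap would appear without pairing, because a combined SD rests on more values.

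Genes read in only one tissue of a horse were counted as the last step. As deposited, 687, 950, 1413 and 1860 genes had at least 10 counts in lung and none in liver in horses 1 to 4, and 192, 174, 96 and 87 genes the reverse. This order of the horses followed the depth of their libraries, with horse 4 having the deepest lung relative to its liver. Thinned to the same total of 4345694 counts, the numbers were 1149 ± 148 and 190 ± 19.5, and thinned to the same TMM-scaled size 493 ± 53.5 and 253 ± 22.5 (SD, n = 4 horses). Lung exceeded liver in 4 of 4 horses at each depth, by 1090 ± 569, 959 ± 163 and 240 ± 71.4 genes (exact sign-flip test, p = 0.13 for each, the smallest that 4 horses can give). The size of the difference thus depended on the depth match and its direction did not.

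Across animals, 215 genes had at least 10 counts in every lung library and none in any liver library, and 26 genes had the reverse. The difference depended on the depth match: thinned to the same total the numbers were 176 and 32, and thinned to the same TMM-scaled size 95 and 86. As deposited, the 215 genes had mean lung levels of 0.419 to 115 CPM with a median of 2.28, and the 26 genes mean liver levels of 2.24 to 107 CPM with a median of 12.1. A count of 0 over 4 libraries allows 0.0792 CPM in liver and 0.0216 CPM in lung, taking 3 counts over the group as the limit for counting error. Of the 215 genes, 61 had no count in any heart library and 15 had at least 10 counts in each. Of the 26 genes, 4 had no count in any heart library, or 20 when heart replicate 2 was left out, the heart library in which ENSECAG00000010305 stood at 2556 CPM, against 48.5 to 163 CPM in the others.

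The heart was also used to place the DEGs. Among the DEGs higher in lung, the heart mean lay between the lung and liver means for 47.7%, below both for 24.9% and above both for 27.4%. Among the DEGs higher in liver the shares were 52.97%, 27.99% and 19.04%. Genes that were not DEGs had 19.5% between, 36.6% below both and 43.9% above both. A DEG differs by 2-fold or more by definition, so a larger share between its means is partly built in. On a log2 scale the heart was nearer to the lung for 51.3% of the DEGs higher in lung and for 64.1% of those higher in liver, compared with 49.7% of the genes that were not DEGs. Without heart replicate 2 these shares were 49.8%, 63.5% and 48.6%. The positions moved more for DEGs higher in liver, with 48.4% between, 31.7% below both and 19.9% above both. For DEGs higher in lung they were then 46.1%, 26.8% and 27.1%, in the same order.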

How the data were processed

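Lung and liver of 4 horses were measured by poly-A selected, unstranded RNA-seq (TruSeq v2, paired 150-base reads), with heart libraries of the same horses in the same model. The labels and the methods of the study name different RNA isolation kits. The authors deposited raw read counts per Ensembl gene. Per the submitters' processing notes, reads were aligned to EquCab3.0 with TopHat2 and counted with HTSeq, and tissues were compared with DESeq2. Whether counting used strand was not stated, and reads of overlapping or antisense genes cannot be told apart, and genes with near-identical copies lose reads. PCR duplicates were not identified, so limits cover counting error only. Summary rows stayed out of all totals. Reads outside genes, reads of more than 1 gene and reads with several places made up 29.5%, 2.16% and 5.43% of listed reads in lung and 19.2%, 2.66% and 6.88% in liver.

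The tests ran in edgeR 4.0.16 under R 4.3.3. Of 31217 genes, 15436 passed edgeR's default filter by tissue, 8133 had no count and 7648 were below the filter. The 12 libraries entered 1 robust quasi-likelihood model of tissue with TMM scaling, as a block-free fit. Each SE was derived from the F statistic and the log2 fold change. Ratios within horses were differences of log2 CPM with a prior count of 2, and per-horse values were tested by two-sided exact sign-flip tests. There is 1 library per animal and tissue, so the replicates are separate animals. The animal number pairs the libraries. As a check, deviations from the tissue means correlated across genes between lung and liver of the same horse with r of 0.087 to 0.37 (mean 0.23). Between different horses the mean r was -0.076 and the highest 0.050. Deviations from a mean over the same 4 horses cancel, which lowers the values between different horses. Horse 4, at 0.087, stood little above the highest of these. Genes restricted to a tissue were the 30 most counted among those at 100 times the median heart level or more. The 4 genes named are, per direction, the DEG with the highest mean in the higher tissue and no overlap, and the DEG with the widest range of the ratio (at least 10 counts in all 8 libraries, at least 10 CPM in the higher tissue, 1 sign in 4 of 4 horses). Lists of marker genes needed symbols, and the RefSeq table of another assembly (TB-T2T) matched 0 identifiers, so no list was applied. Scripts were tested on simulated data. Alternatives were other scalings, DESeq2 1.42.0, filters, prior counts, thinning, a horse block and left-out libraries. Thinning for genes read in 1 tissue only, the filter at an equal level (10 counts in the library with the smallest scaled size), leaving out heart replicate 2 and library totals by class were added after seeing the data. The comparison, its classes and its rules were chosen with earlier results of these data known.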

Additional observations from a re-analysis of the deposited data

Results flagged for a closer look

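In 4 of 55 sets of 4 values, 1 value stood apart from the other 3 by more than Dixon's 95% limit for 4 values. For independent sets chance gives about 1 in 20, or 2.75 of 55. These sets share genes and libraries, and ENSECAG00000038509 and ENSECAG00000013311 were chosen for their range over the same horses. The number flagged can therefore not be compared with that expectation. For ENSECAG00000010662 the liver level was 7.93 CPM in horse 4, the shallowest library, against 3.90 to 4.24 CPM in the other horses. For ENSECAG00000038509 the lung level was 1232 CPM in horse 2 against 19.5 to 198 CPM. For ENSECAG00000013311 the lung level was 5.29 CPM in horse 3 against 0.468 to 0.901 CPM, in the lung library with the highest trace of liver genes. The median absolute deviation of liver levels from their mean over horses was 0.205 log2 units in horse 3 against 0.25 to 0.254 in the others.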

How the results depend on the processing

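Of 205 recomputed values, 182 were labelled as kept. A tested value had to keep its direction and its side of the threshold, which says little where 4 horses cannot pass the threshold. The SD of the ratio had to move by less than the spread. Numbers of genes only had to stay within a set fold of the main number, which is a wide limit. For example, 4333 DEGs higher in liver without the fold threshold counted as kept, against 2994. With library totals alone there were 10788 DEGs higher in lung and 1151 higher in liver, 12344 genes with lung above liver in every horse and 1504 with liver above lung, and the class medians from 10 to 100 and from 100 to 1000 CPM became 1.62 and 1.33. Totals without the 10 most counted genes of each tissue gave 9039 and 1386 DEGs. Thinning to the smallest total turned the median from 10 to 100 CPM to 0.016, which is close to 0 in either fit, and gave 3516 and 2790 DEGs. With classes set in the heart, lung minus liver shares became -14.2 points from 100 to 1000 CPM and 0.351 points at 1000 CPM or more, and without heart replicate 2 they were -0.065, -2.98, -5.33, 8.07 and 0.309 points from the lowest class to the highest. With at least 10 counts in each of the 8 libraries, 3442 genes had lung above liver in every horse and 4229 liver above lung, so the balance turned to the liver. At an equal level in either tissue there were 3167 and 2706 DEGs. The highest quartile of the mean log2 level had a median ratio of -0.31, against -8.79 for the class at 1000 CPM or more. The median SD of the ratio, 0.42 in the main fit, was 0.40 with a prior count of 5, 0.58 after thinning, 0.35 at the equal level and 0.32 with at least 10 counts, and 0.37 to 0.41 when 1 horse was left out. DEGs numbered 4228 to 5025 in lung and 2911 to 3419 in liver when a library or a horse was left out, and 4756 and 3109 with DESeq2.

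With the horse as a replicate block there were 4886 and 2999 DEGs. Of the 7787 DEGs, 7685 kept their call and direction, 102 lost it and 200 were gained, and the median SE was 0.27 compared with 0.30 without the block. No call of a gene named above changed.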
